A study of Mus musculus with 6 samples.

Results

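The genes described here carry sugar from the medium to lactate or to pentose phosphates: glucose and lactate transporters, the enzymes of glycolysis, the kinases that regulate it, the kinases that close the entry of pyruvate into mitochondria, phosphoglucomutases and the pentose phosphate enzymes. The list names 42 genes. It was chosen by function, and 37 of the genes had a probe set annotated to a single gene, out of 19938 genes tested in the whole series. Gpi1, Pfkfb1, Eno1 and G6pdx were named in no probe set annotation, and all 25 probe sets that name Gapdh also name other genes, so these 5 were not analysed here.

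Expression was measured on 6 Affymetrix gene arrays of mouse pre-B cells that carry BCR-ABL1 as their transforming oncogene, a model of Philadelphia chromosome-positive leukaemia, from strain 129P2/OlaHsd. All cells were Ptpn6 +/fl, meaning that 1 of the 2 alleles of the SHP-1 phosphatase gene can be cut out by Cre recombinase. The 3 CRE-ERT2 arrays came from cells transduced with PMIP-CRE-ERT2, a vector for a Cre recombinase that is switched on by tamoxifen, and the 3 ERT2 arrays from cells transduced with PMIP-ERT2, which has the hormone-binding part alone. Both groups were puromycin resistant and had received 0.5 micromolar 4OH-Tamoxifen, an active tamoxifen metabolite, for 2 days. The other Ptpn6 allele is not floxed, and Cre was present in 1 group only. Effects of the recombinase and of any loss of the floxed allele therefore cannot be told apart. The labels do not say whether the arrays of a group came from separate cultures, and the p-values may therefore reflect no more than technical spread between arrays.

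Ptpn6 itself read 11.36, 11.25 and 11.20 on the log2 scale on the CRE-ERT2 arrays and 11.25, 11.39 and 11.39 on the ERT2 arrays. The change was -0.07 (limma adjusted p = 0.759). Where its probe set lies relative to the floxed part is not known here, so the value does not check the labels. Array medians lay between 7.90 and 7.98. Of the 13 pre-B cell markers measured, the recombinase gene Rag2 and the interleukin 7 receptor gene Il7r fell (log2 changes -0.53 and -0.43). Dntt, the terminal transferase gene, rose (0.48), and 10 did not pass. Among all genes tested 2.28% fell and 2.30% rose. Of the 13 changes 10 were positive, against 7762 of all 19938 genes tested. All CRE-ERT2 arrays lay above all ERT2 arrays for 6 markers and below for 2, against 6.92% and 15.5% of all genes. The part of these marker changes in the results below was not tested. The mean log2 level of the pre-B list was 12.14 to 12.20 on the CRE-ERT2 arrays and 12.11 to 12.19 on the ERT2 arrays. The mean log2 level on the CRE-ERT2 and ERT2 arrays was 6.998 to 7.09 and 6.99 to 7.13 for 10 T cell markers, 5.79 to 5.84 and 5.81 to 5.92 for 6 NK cell markers, and 6.98 to 7.09 and 6.99 to 7.10 for 12 myeloid markers. It was 7.28 to 7.42 and 7.27 to 7.40 for 5 erythroid and megakaryocyte markers, and 7.26 to 7.41 and 7.22 to 7.43 for 10 stromal markers. In these 5 lists 0 genes passed (limma), and the ranges of the list means overlapped between groups. At an unadjusted p under 0.05 (limma) there were 2 NK cell and 1 myeloid markers, against 3260 of all 19938 genes tested. Single markers without overlap were the myeloid Lyz2 and Adgre1, with CRE-ERT2 below, and the NK cell marker Klrk1, with CRE-ERT2 above. Separation in these directions held for 15.5% and 6.92% of all genes. Signal over background is unknown, a change near background is compressed, and with so few arrays the precision of each value is limited.

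Glycolysis splits glucose into pyruvate. Hexokinase traps glucose in the cell, phosphofructokinase commits it, and lactate dehydrogenase and the lactate exporters let the flow run on when pyruvate is not burned in mitochondria. The pentose phosphate pathway branches off after hexokinase and supplies NADPH and the ribose of nucleotides. Growing lymphocytes and leukaemia cells run glycolysis at high rates, and the transcription factors MYC and HIF-1 are known activators of many of its genes.

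Of the 37 genes measured, 13 were lower on the CRE-ERT2 arrays, 1 was higher and 23 did not pass (limma, Benjamini-Hochberg adjusted over all genes, threshold 0.05). Among all genes tested 4.58% were called, 2.28% lower and 2.30% higher. The median log2 change of the 37 was -0.12, against -0.03 over all genes tested. The 13 that fell had changes from -0.78 to -0.30, and the 23 that did not pass ranged from -0.19 to 0.13 with a median of 0.01. Among the 23, both group means of Hk3, Fbp1, Pgam2, Bpgm, Eno2, Ldhb and Pdk4 lay below 7.90, the lowest array median. Whether they were above background is unknown. The genes that fell were Slc2a1, Slc16a3, Hk2, Pfkl, Pfkp, Aldoa, Aldoc, Tpi1, Pgk1, Pgam1, Pkm, Ldha and Pgm1, which cover glucose entry, most steps of glycolysis and lactate release. The gene that rose was Pdk2. For 17 of the 37 every CRE-ERT2 array lay below every ERT2 array, where this held for 15.5% of all genes, and for 1 they lay above, where this held for 6.92%. Without CRE-ERT2 replicate 3 the number of genes that fell was 7, and it was 5 when each probe set of the arrays was tested on its own.

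**Figure D1:**
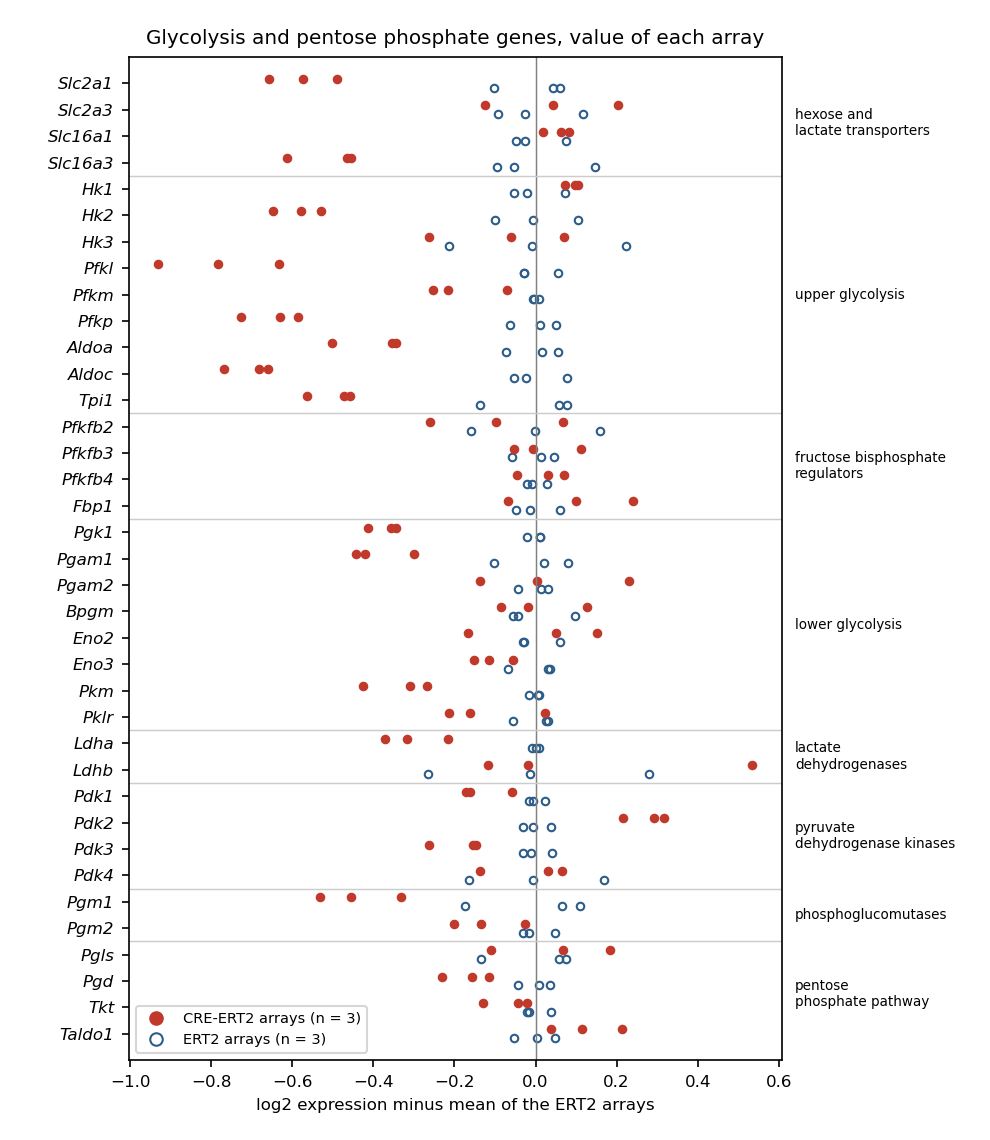
Log2 expression of the 37 measured genes on each array, minus the mean of that gene's ERT2 arrays (horizontal axis), with filled points for the 3 CRE-ERT2 arrays and open points for the 3 ERT2 arrays. The CRE-ERT2 points of 17 genes lie wholly to the left of the ERT2 points and those of Pdk2 wholly to the right.

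Promoters of 6 of these genes are shown because they hold, or lack, the short motifs of the factors known to drive the pathway. HIF-1 binds the core ACGTG or GCGTG, and MYC with its partner MAX binds CACGTG, which contains ACGTG. Each sequence is the 250 bases before the RefSeq transcription start (build GRCm38.p6), written in the direction of the gene, and capitals mark ACGTG or GCGTG on either strand. The 6 are the glucose transporter gene, the phosphofructokinase gene with the lowest change, a lower glycolysis gene, the lactate dehydrogenase gene, the lactate exporter gene and the pyruvate dehydrogenase kinase gene that rose. For Ldha and Pdk2, which have 2 listed starts each, the more upstream one is shown.
Slc2a1 promoter, chr4:119108495-119108744, plus strand: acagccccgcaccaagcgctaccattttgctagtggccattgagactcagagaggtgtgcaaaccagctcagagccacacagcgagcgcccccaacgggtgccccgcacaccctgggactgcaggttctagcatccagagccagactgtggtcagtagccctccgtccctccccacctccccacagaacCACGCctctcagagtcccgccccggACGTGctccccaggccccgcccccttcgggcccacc
Pfkl promoter, chr10:78009808-78010057, minus strand: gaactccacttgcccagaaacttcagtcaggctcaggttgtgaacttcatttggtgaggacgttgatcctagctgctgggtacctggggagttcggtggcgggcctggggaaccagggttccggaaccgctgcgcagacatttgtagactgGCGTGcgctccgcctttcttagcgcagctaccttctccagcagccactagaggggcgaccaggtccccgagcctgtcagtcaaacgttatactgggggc
Pgk1 promoter, chrX:106186850-106187099, plus strand: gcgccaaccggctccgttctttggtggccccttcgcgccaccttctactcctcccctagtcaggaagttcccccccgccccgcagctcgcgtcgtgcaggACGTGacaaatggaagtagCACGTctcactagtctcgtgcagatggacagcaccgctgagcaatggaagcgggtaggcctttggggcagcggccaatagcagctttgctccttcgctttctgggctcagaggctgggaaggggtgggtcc
Ldha promoter, chr7:46845554-46845803, plus strand: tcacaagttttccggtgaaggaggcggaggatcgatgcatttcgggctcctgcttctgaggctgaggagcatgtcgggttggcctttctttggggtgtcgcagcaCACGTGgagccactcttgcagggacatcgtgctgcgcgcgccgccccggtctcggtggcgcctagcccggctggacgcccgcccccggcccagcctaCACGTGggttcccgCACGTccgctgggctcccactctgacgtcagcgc
Slc16a3 promoter, chr11:120948817-120949066, plus strand: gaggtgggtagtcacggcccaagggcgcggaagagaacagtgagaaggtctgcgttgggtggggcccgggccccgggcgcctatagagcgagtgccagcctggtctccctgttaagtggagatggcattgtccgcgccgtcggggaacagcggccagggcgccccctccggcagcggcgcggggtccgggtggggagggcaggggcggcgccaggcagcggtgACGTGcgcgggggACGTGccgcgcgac
Pdk2 promoter, chr11:95041372-95041621, minus strand: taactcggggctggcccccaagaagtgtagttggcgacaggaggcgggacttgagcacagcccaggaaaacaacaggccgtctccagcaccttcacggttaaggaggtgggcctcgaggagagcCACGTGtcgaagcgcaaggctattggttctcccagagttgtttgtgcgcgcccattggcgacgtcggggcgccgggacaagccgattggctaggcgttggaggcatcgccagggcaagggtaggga

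The table of promoters had an entry for 36 of the 37 measured genes. ACGTG on either strand stood in the upstream window of at least 1 start for 9 of the 13 genes that fell, for 7 of the 22 that did not pass and for Pdk2, which rose. Counted per start, it was in 10 of 18 windows of the genes that fell (55.6%), against 10 of 32 windows of the genes that did not pass (31.2%), 18.4% of the windows of genes tested and 16.6% of all 32851 windows. The Pgk1 and Slc16a3 windows held 2 separate copies each, and Ldha held 3 stretches, 2 of them the full CACGTG. Pfkl, with the lowest change of the 37, held no ACGTG and 1 GCGTG, and Tpi1 held neither. GCGTG was in 7 of 18 windows of the genes that fell (38.9%), against 17 of 32 windows of the genes that did not pass (53.1%), 35.9% of the windows of genes tested and 28.2% of all windows. CACGTG was in 1 of 18 windows of the genes that fell (5.56%), against 4 of 32 windows of the genes that did not pass (12.5%), 6.99% of the windows of genes tested and 6.02% of all windows. These letters are a description of the windows and do not show that a factor binds there.

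The transporters split by gene. Slc2a1 encodes GLUT1, the main glucose carrier of proliferating blood cells, and Slc16a3 encodes MCT4, a lactate exporter. Slc2a1 read 11.80, 11.72 and 11.64 (log2) on the CRE-ERT2 arrays and 12.19, 12.35 and 12.34 on the ERT2 arrays. The groups were fully apart, and the level was 1.49-fold lower (log2 change -0.57, SE 0.08, limma adjusted p = 0.000751). Slc16a3 read 8.25, 8.41 and 8.40 on the CRE-ERT2 arrays and 8.77, 9.02 and 8.82 on the ERT2 arrays. It fell 1.43-fold (log2 change -0.51, SE 0.08, limma adjusted p = 0.00330), again with no overlap.

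The second carrier of each kind did not pass. Slc2a3, the high-affinity glucose carrier GLUT3, read 9.40, 9.24 and 9.07 on the CRE-ERT2 arrays and 9.10, 9.31 and 9.17 on the ERT2 arrays, and the groups overlapped. Slc16a1, the lactate carrier MCT1, read 13.001, 12.98 and 12.94 on the CRE-ERT2 arrays and 12.87, 12.99 and 12.89 on the ERT2 arrays, also overlapping. The 95% confidence intervals of their log2 changes were -0.16 to 0.24 for Slc2a3 and -0.10 to 0.21 for Slc16a1.

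Of 9 genes of upper glycolysis measured, 6 fell and 3 did not pass (all genes tested: 2.28% lower and 2.30% higher). Hexokinase makes glucose 6-phosphate, and among its genes Hk2, the form induced in many tumours, fell. Hk2 read 9.43, 9.38 and 9.31 on the CRE-ERT2 arrays and 10.07, 9.96 and 9.86 on the ERT2 arrays. All 3 CRE-ERT2 values were below the lowest ERT2 value, and Hk2 fell to 0.667 of its ERT2 level (log2 change -0.58, SE 0.08, limma adjusted p = 0.000637).

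Hk1, the widely expressed form, read 14.09, 14.09 and 14.06 on the CRE-ERT2 arrays and 13.97, 14.06 and 13.94 on the ERT2 arrays. Its log2 change was 0.09 (adjusted p = 0.621, limma), and the arrays overlapped. This brightest probe set carries no RefSeq transcript, and 16 other probe sets name Hk1 together with the ribosomal protein gene Rpl17, with mean levels of 12.93 to 14.14, so what it reads is uncertain. The other Hk1 probe set, which carries RefSeq transcripts, read 10.62, 10.67 and 10.53 on the CRE-ERT2 arrays and 10.55, 10.54 and 10.61 on the ERT2 arrays, with a log2 change of 0.04. Hk3, a form known from myeloid cells, changed by -0.08 (95% confidence interval -0.33 to 0.16).

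Phosphofructokinase, which commits sugar to glycolysis, has a liver, a muscle and a platelet form, named for the tissues they were found in. Pfkl, the liver form, read 10.86, 10.71 and 10.56 on the CRE-ERT2 arrays and 11.46, 11.55 and 11.47 on the ERT2 arrays. This was 1.72-fold lower (log2 change -0.78, SE 0.08, limma adjusted p = 0.000118), the lowest change among the 37 genes, and CRE-ERT2 replicate 3 was the lowest array. Pfkp, the platelet form, read 10.78, 10.73 and 10.64 on the CRE-ERT2 arrays and 11.41, 11.37 and 11.30 on the ERT2 arrays. The groups did not overlap and it fell 1.57-fold (log2 change -0.65, SE 0.07, limma adjusted p = 0.000176).

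Pfkm, the muscle form, read 9.63, 9.45 and 9.49 on the CRE-ERT2 arrays and 9.70, 9.71 and 9.70 on the ERT2 arrays. The CRE-ERT2 arrays were all below, yet the log2 change of -0.18 did not pass (SE 0.07, limma adjusted p = 0.243).

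Aldolase splits the 6-carbon sugar, and both aldolase genes fell. Aldoc, best known from brain, read 7.84, 7.86 and 7.75 on the CRE-ERT2 arrays and 8.46, 8.60 and 8.49 on the ERT2 arrays. It was 1.63-fold lower (log2 change -0.70, SE 0.07, limma adjusted p = 9.34e-05). The CRE-ERT2 mean of Aldoc, 7.81, lay below the lowest array median (7.90), and whether it was above background is unknown. Aldoa, the common form, read 12.85, 12.84 and 12.70 on the CRE-ERT2 arrays and 13.13, 13.21 and 13.25 on the ERT2 arrays. It fell 1.32-fold (log2 change -0.40, SE 0.08, limma adjusted p = 0.00841), and no array of one group reached the other for either gene. Without CRE-ERT2 replicate 3 the adjusted p of Aldoa was 0.0670.

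Tpi1, triose phosphate isomerase, which interconverts the 2 products of aldolase, read 12.82, 12.81 and 12.72 on the CRE-ERT2 arrays and 13.14, 13.36 and 13.34 on the ERT2 arrays. The groups were apart, and the level was 1.41-fold lower (log2 change -0.50, SE 0.08, limma adjusted p = 0.00267).

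The regulators of fructose bisphosphate did not pass in either direction (0 of 4 measured, and 0 at an unadjusted p under 0.05, limma). Among all genes tested 2.28% were called lower and 2.30% higher, so few calls among 4 genes would be usual. Pfkfb2, Pfkfb3 and Pfkfb4 make and break down fructose 2,6-bisphosphate, the activator of phosphofructokinase, and Fbp1 runs the phosphofructokinase step backwards in gluconeogenesis. Their log2 changes were -0.10 for Pfkfb2, 0.02 for Pfkfb3, 0.02 for Pfkfb4 and 0.09 for Fbp1, and the arrays of the groups overlapped for all 4. The interval for Pfkfb3, a form induced in tumours, was -0.15 to 0.18, and that for Pfkfb4 was -0.13 to 0.17.

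Of 8 genes of lower glycolysis measured, 3 fell and 5 did not pass (all genes tested: 2.28% lower and 2.30% higher). Pgk1, phosphoglycerate kinase, makes the first ATP of the pathway, and it read 13.06, 13.08 and 13.01 on the CRE-ERT2 arrays and 13.40, 13.43 and 13.43 on the ERT2 arrays. It fell 1.29-fold (log2 change -0.37, SE 0.07, limma adjusted p = 0.00709). Its 2 other probe sets held identical values on every array, so they are not independent readings, and changed by -0.36.

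Pgam1, phosphoglycerate mutase, read 12.95, 12.81 and 12.83 on the CRE-ERT2 arrays and 13.15, 13.27 and 13.33 on the ERT2 arrays. The fall was 1.31-fold (log2 change -0.39, SE 0.08, limma adjusted p = 0.0121), and its 2 other probe sets, identical to each other, changed by -0.37. Pkm, the pyruvate kinase of most tissues, catalyses the last step and read 12.69, 12.64 and 12.53 on the CRE-ERT2 arrays and 12.96, 12.96 and 12.94 on the ERT2 arrays. It fell 1.26-fold (log2 change -0.33, SE 0.07, limma adjusted p = 0.0196), and its second probe set changed by -0.29. Genes of glycolysis have many near-identical pseudogenes, and whether these probe sets also read them was not tested. For all 3 genes the groups did not overlap.

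Some of these calls were lost when a single array was left out. That step also removes a sample, and the reason for the losses was not tested. Without CRE-ERT2 replicate 3 the adjusted p was 0.0546 for Pgk1, 0.0800 for Pgam1 and 0.124 for Pkm. Without CRE-ERT2 replicate 2 it was 0.0558 for Pgam1 and 0.0559 for Pkm, and without ERT2 replicate 1 it was 0.0638 for Pkm.

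The forms of lower glycolysis that are known from other tissues did not pass, and their groups overlapped. Group means of Pgam2, Eno2 and Bpgm were 7.46 to 7.72, below the lowest array median (7.90), so they may lie near background. Pgam2, the muscle mutase, changed by 0.03 on the log2 scale, Eno2, the neuronal enolase, by 0.01, and Eno3, the muscle enolase, by -0.11. Pklr, the pyruvate kinase of liver and red cells, changed by -0.12, and Bpgm, which makes the red cell effector 2,3-bisphosphoglycerate, by 0.01.

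**Figure D2:**
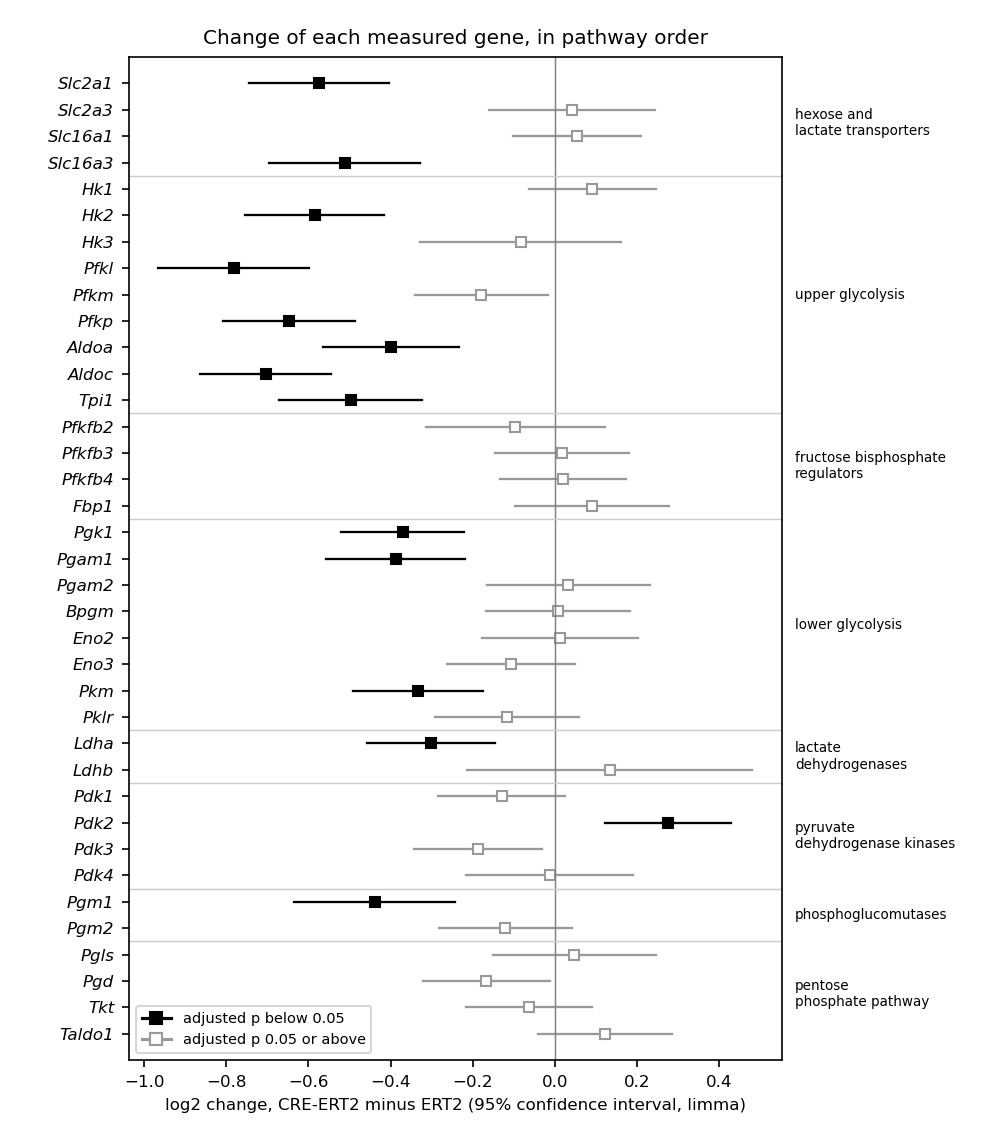
Log2 change of each measured gene (CRE-ERT2 minus ERT2, horizontal axis) with its 95% confidence interval from limma, in the order of the pathway. Filled squares mark the 13 genes that fell and Pdk2, which rose, and open squares the 23 that did not pass.

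Lactate dehydrogenase turns pyruvate into lactate. Ldha, the form of tissues that make lactate, read 14.05, 13.95 and 13.89 on the CRE-ERT2 arrays and 14.26, 14.27 and 14.25 on the ERT2 arrays. It was 1.23-fold lower (log2 change -0.30, SE 0.07, limma adjusted p = 0.0324) with no overlap, the smallest fall among the 13, and its level is close to 14.9, the highest value in the table. The adjusted p of Ldha was above 0.05 without CRE-ERT2 replicate 2 (0.121), CRE-ERT2 replicate 3 (0.174), ERT2 replicate 1 (0.0870), ERT2 replicate 2 (0.0708) or ERT2 replicate 3 (0.0581).

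Ldhb, the form of heart and other lactate-using tissues, read 7.17, 7.07 and 7.72 on the CRE-ERT2 arrays and 7.17, 6.92 and 7.46 on the ERT2 arrays. Replicate 3 was the highest array of both groups, the groups overlapped, and the log2 change was 0.13 with a 95% confidence interval of -0.21 to 0.48. A second Ldhb probe set changed by -0.02.

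Pyruvate dehydrogenase kinases switch off the enzyme that sends pyruvate into the mitochondrion. Pdk2 read 8.19, 8.30 and 8.27 on the CRE-ERT2 arrays and 7.95, 8.02 and 7.97 on the ERT2 arrays. All CRE-ERT2 values lay above all ERT2 values, and the level was 1.21-fold higher (log2 change 0.28, SE 0.07, limma adjusted p = 0.0452). No fit on 5 arrays called Pdk2: leaving out CRE-ERT2 replicates 1, 2 or 3 gave limma adjusted p-values of 0.0681, 0.193 or 0.180, and leaving out ERT2 replicates 1, 2 or 3 gave 0.123, 0.0678 or 0.0882. It also missed the threshold after arrays were centred on their medians (0.0587).

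Pdk1, the form known as a HIF-1 target, read 11.58, 11.47 and 11.48 on the CRE-ERT2 arrays and 11.64, 11.67 and 11.63 on the ERT2 arrays. The groups did not overlap, but the log2 change of -0.13 did not pass (limma adjusted p = 0.408). Pdk3 changed by -0.19 (adjusted p = 0.192, limma), also without overlap, and Pdk4, the form induced by fasting, by -0.01 with overlap.

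Phosphoglucomutase links glucose 6-phosphate to glycogen and to sugar nucleotides. Pgm1 read 10.45, 10.32 and 10.25 on the CRE-ERT2 arrays and 10.61, 10.89 and 10.84 on the ERT2 arrays. The groups did not overlap and it fell 1.36-fold (log2 change -0.44, SE 0.09, limma adjusted p = 0.0134), with an adjusted p of 0.101 without CRE-ERT2 replicate 3. Pgm2, whose product acts mainly on pentose phosphates, read 11.22, 11.11 and 11.05 on the CRE-ERT2 arrays and 11.22, 11.29 and 11.23 on the ERT2 arrays, with overlap and a log2 change of -0.12. The names Pgm1 and Pgm2 were swapped in older mouse annotation, and here they follow the Entrez identifiers in the gene table.

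The pentose phosphate enzymes did not pass (0 of 4 measured, limma, against 2.28% lower and 2.30% higher of all genes tested). At an unadjusted p under 0.05 (limma) there was 1 of the 4, against 3260 of all 19938 genes tested. Pgd, 6-phosphogluconate dehydrogenase, which makes NADPH, read 12.43, 12.39 and 12.31 on the CRE-ERT2 arrays and 12.55, 12.50 and 12.58 on the ERT2 arrays. Its groups did not overlap, and the log2 change was -0.17 (95% confidence interval -0.32 to -0.01, limma adjusted p = 0.260). The lactonase gene Pgls changed by 0.05, transketolase (Tkt) by -0.06 and transaldolase (Taldo1) by 0.12. The arrays of the groups overlapped for Pgls, Tkt and Taldo1.

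Pairs of genes for the same step, or for related steps in the case of Pgm2 and Pgm1, were compared within each array. The difference of 2 log2 values on 1 array shows whether they changed by unequal amounts. Of the 10 pairs listed, 9 were measured. The change of the within-array difference was -0.68 for Hk2 minus Hk1, or -0.62 with the Hk1 probe set that carries RefSeq transcripts. It was -0.60 for Pfkl minus Pfkm, -0.47 for Pfkp minus Pfkm, -0.62 for Slc2a1 minus Slc2a3 and -0.57 for Slc16a3 minus Slc16a1. It was -0.41 for Pdk1 minus Pdk2, -0.30 for Aldoc minus Aldoa and 0.32 for Pgm2 minus Pgm1. For these 8 pairs the differences on the CRE-ERT2 arrays did not overlap those on the ERT2 arrays, while for Ldha minus Ldhb they overlapped (change -0.43). For single genes the groups did not overlap in 22.5% of all genes tested, and that share was not computed for pairs. A two-sided exact permutation test gave p = 0.1 for each of the 8 and 0.3 for Ldha minus Ldhb, with 0.1 the smallest p that 3 arrays against 3 can give, and 0.1125 after adjustment over 9 pairs for the 8. This test therefore cannot reach 0.05 for any pair with 3 arrays against 3.

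**Figure D3:**
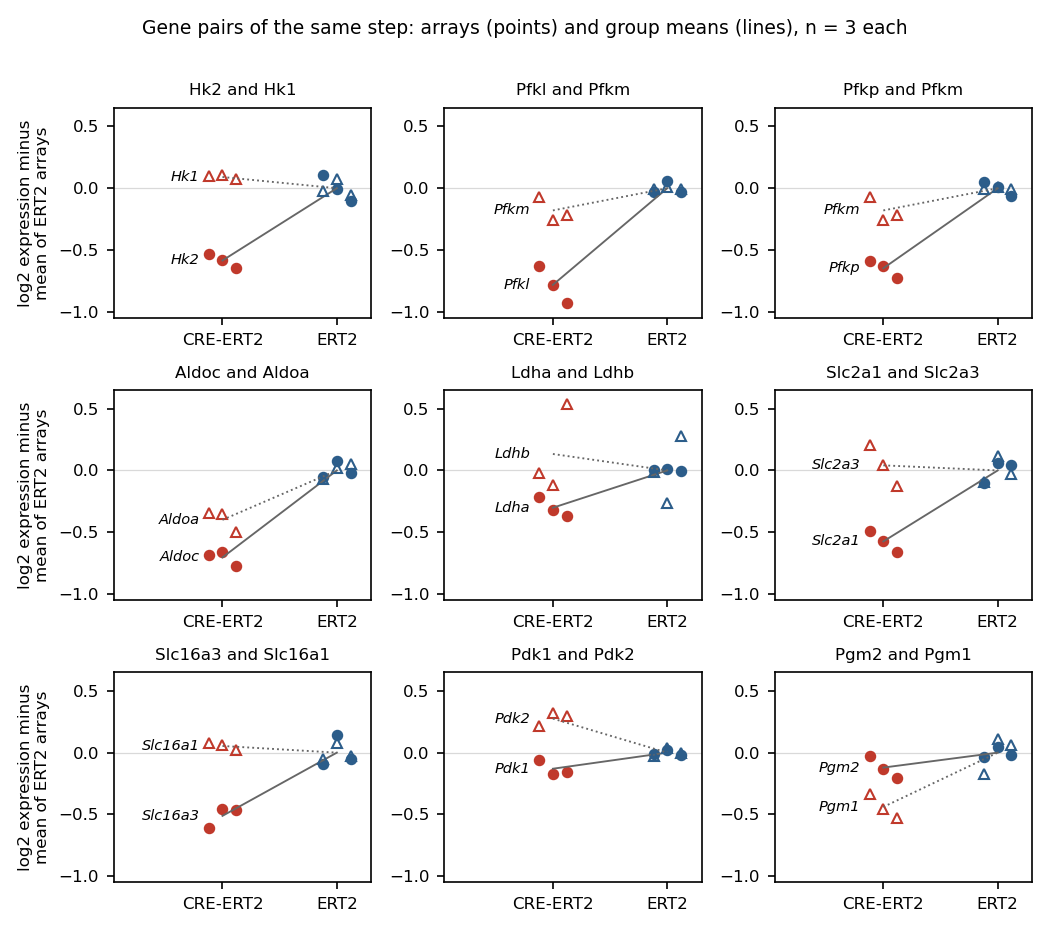
Log2 expression on each array minus the mean of that gene's ERT2 arrays (vertical axis) for 9 pairs of genes, with CRE-ERT2 arrays at the left and ERT2 arrays at the right of each panel (n = 3 each). Circles and solid lines show the first gene named above a panel, triangles and dotted lines the second, and lines join the group means. The 2 genes lie apart on the CRE-ERT2 arrays in each panel, and only for Ldha and Ldhb, where Ldhb spreads most, do the within-array differences overlap between groups.

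Within each group the 13 genes that fell often had the same array as the lowest. CRE-ERT2 replicate 3 was the lowest of its group for 11 of the 13, against 34.4% of all genes tested. ERT2 replicate 1 was the lowest of its group for 9 of the 13, against 22.9% of all genes. ERT2 replicate 2 was the lowest for 0 of the 13, against 46.6% of all genes. It was the highest for 9, and the share of all genes for which it was highest was not computed. The median distance of the 13 from their ERT2 means was -0.46, -0.46 and -0.53 on CRE-ERT2 replicates 1, 2 and 3, and -0.05, 0.02 and -0.01 on ERT2 replicates 1, 2 and 3. These distances describe genes that were selected for being lower between the groups. The array medians over all probe sets were 7.90, 7.95 and 7.96 on the CRE-ERT2 arrays and 7.98, 7.93 and 7.95 on the ERT2 arrays.

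Neighbouring pathways were read with 6 further gene lists. Among all genes tested 2.28% were called lower and 2.30% higher. Of 22 other glycolysis and pentose phosphate genes measured, which include tissue-restricted forms, 1 fell and 0 rose, with a median log2 change of -0.05. The gene that fell was Rpia, ribose 5-phosphate isomerase of the pentose phosphate pathway, at -0.38 (limma adjusted p = 0.0119), which did not pass if CRE-ERT2 replicate 3 (0.0845) or ERT2 replicate 1 (0.0528) was left out. Minpp1, an inositol phosphate phosphatase that can also act on 2,3-bisphosphoglycerate, changed by -0.25 and did not pass. Of 20 other sugar and lactate transporters, 1 fell and 0 rose, with a median of 0.06. Slc37a4, the glucose 6-phosphate carrier of the endoplasmic reticulum, fell by 0.41 on the log2 scale (limma adjusted p = 0.0302), and this call was lost if CRE-ERT2 replicate 3 (0.176) or ERT2 replicate 2 (0.0756) was left out. Slc2a6, a lysosomal hexose carrier, changed by 0.39 (adjusted p = 0.0569), and passed without ERT2 replicate 2 (0.0416) or ERT2 replicate 3 (0.0178) and under both other scalings (0.0432 after a further quantile normalization and 0.0438 after centring).

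Of 21 genes of glycogen, fructose, galactose and glycerol phosphate metabolism, 2 fell and 0 rose (all genes tested: 2.28% and 2.30%). The median was -0.08. Gbe1, the glycogen branching enzyme, changed by -0.49 (limma adjusted p = 0.00342) and Gpd1l, a glycerol 3-phosphate dehydrogenase relative, by -0.30 (0.0321). Gpd1l did not pass without CRE-ERT2 replicate 1 (0.0915), 2 (0.151) or 3 (0.0738) or ERT2 replicate 1 (0.109). Of 28 genes of pyruvate entry and the citric acid cycle, 3 fell and 0 rose, and the median was -0.15. Dlst, a subunit of the 2-oxoglutarate dehydrogenase complex, changed by -0.42 (limma adjusted p = 0.00425), Suclg2, a succinyl-CoA ligase subunit, by -0.34 (0.0437), and Got1, the cytosolic aspartate aminotransferase, by -0.31 (0.0297). In that list 18 of 28 genes had all CRE-ERT2 arrays below all ERT2 arrays, where this held for 15.5% of all genes. The calls of Suclg2 and Got1 were lost without CRE-ERT2 replicate 2 (0.161 and 0.126), CRE-ERT2 replicate 3 (0.192 and 0.156), ERT2 replicate 1 (0.168 and 0.0861) or ERT2 replicate 2 (0.0913 and 0.0509), that of Suclg2 also without CRE-ERT2 replicate 1 (0.0549) and that of Got1 without ERT2 replicate 3 (0.0615).

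Of 30 regulators of glycolytic genes measured, 3 fell and 1 rose (all genes tested: 2.28% and 2.30%), and the median log2 change was -0.04. Hif1a, which encodes the oxygen-regulated subunit of HIF-1, read 12.44, 12.34 and 12.46 on the CRE-ERT2 arrays and 12.54, 12.48 and 12.34 on the ERT2 arrays. It overlapped between groups (log2 change -0.04, limma adjusted p = 0.900) and is named here after its value was seen. Prkaa2, a catalytic subunit of the energy sensor AMPK, changed by -0.43 (limma adjusted p = 0.00639), Myc by -0.35 (0.0304) and Egln3, an oxygen sensor that is itself a HIF target, by -0.31 (0.0303). Txnip, which restrains glucose uptake and is induced by glucose, rose by 0.34 (limma adjusted p = 0.0170). Txnip did not pass without CRE-ERT2 replicate 1 (0.0664), 2 (0.0663) or 3 (0.0612). Myc did not pass without CRE-ERT2 replicate 2 (0.0796) or 3 (0.176) or ERT2 replicate 1 (0.129) or 2 (0.0605), and Egln3 without CRE-ERT2 replicate 1 (0.0561), 2 (0.109) or 3 (0.153) or ERT2 replicate 2 (0.0856) or 3 (0.0697).

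Of 24 HIF targets outside glycolysis, 9 fell and 0 rose (all genes tested: 2.28% and 2.30%), with a median of -0.24. Ak4, a mitochondrial adenylate kinase, and Bnip3, a mitophagy receptor, changed by -2.20 and -1.19 on the log2 scale (limma adjusted p = 4.18e-08 and 5.16e-06). Both were lower than the lowest change among the 37 genes. The CRE-ERT2 mean of Ak4, 7.18, lay below the lowest array median (7.90), and whether it was above background is unknown. The collagen lysyl hydroxylase gene Plod2 and Ero1a, an oxidase of the endoplasmic reticulum, changed by -0.46 each (0.00174 and 0.00786). The lists were compiled with earlier results of these data known, so their counts describe them and are no independent evidence.

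**Figure D4:**
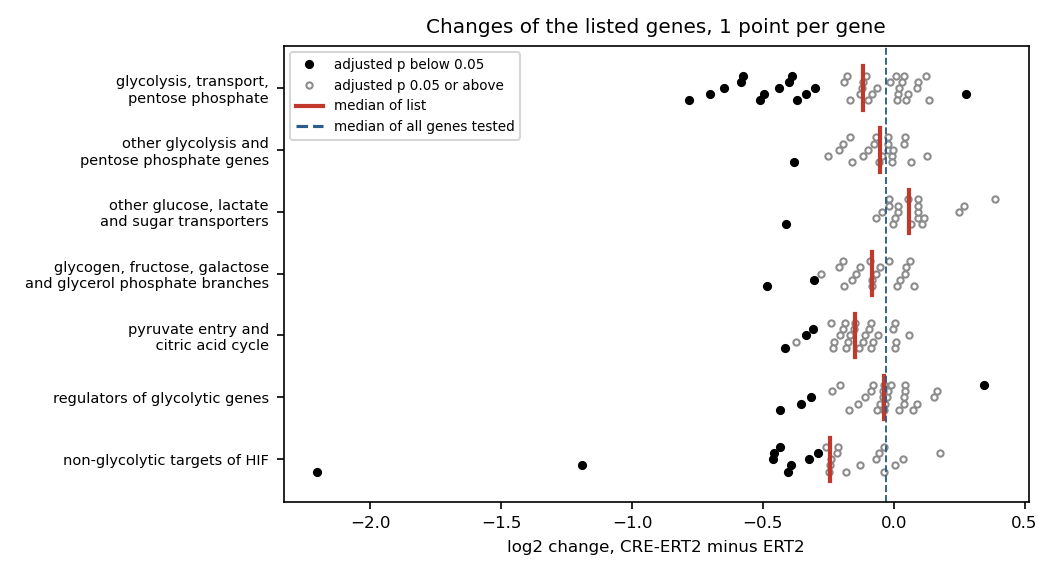
Log2 change (CRE-ERT2 minus ERT2, horizontal axis) of the genes of 7 lists, 1 point per gene, with filled points for those that passed. Thick bars mark list medians, which run from -0.24 for HIF targets outside glycolysis to 0.06 for other transporters, and the dashed line marks the median of all genes tested (-0.03).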

How the data were processed

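Labelled RNA of 6 samples was hybridised to Affymetrix arrays. The deposited values are log2 intensities per probe set, and the submitters' processing notes name RMA and Partek 6.5. The genome build was not given in the sources used here. Each array was mapped to its group through its sample label. Probe sets were named through the platform annotation: 21789 of 35556 had 1 gene, 1621 had several and 12146 had none. The single-gene probe set with the highest mean was kept for each of 19938 genes. Groups were compared by lmFit and eBayes of limma 3.58.1 (R 4.3.3), with both groups in the fit, no covariate and no filter, with Benjamini-Hochberg adjustment over all genes and a threshold of 0.05. Pairs of genes were compared with a two-sided exact permutation test over 6 arrays.

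Every measured gene is accounted for. Values on each array are given for genes that passed and for genes of a pair. From each further list up to 4 passing genes with the largest change are named, and up to 2 by smallest p where fewer passed. The genes, lists and tests were chosen with earlier results of these data known.

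In 10 simulated tables of the same 19938 genes with 200 changed, limma called 41.6% of changes of 0.3 on the log2 scale. It called 97.2% of those of 0.5 and all of those of 1 and 2, and 7.73% of its calls were unchanged genes. Noise was drawn independently for each gene and array, so these rates hold for such tables and may differ on the real arrays. Values of no pair of arrays were identical over the table. Same-numbered arrays did not deviate together (correlations of -0.11, -0.37 and -0.07), and the labels do not say that a number marks a shared culture. Arrays of unlike number had correlations from -0.32 to 0.45. The highest were 0.45 for CRE-ERT2 replicate 1 with ERT2 replicate 2 and 0.40 for CRE-ERT2 replicate 2 with ERT2 replicate 3. What these share is not known, and no fit took it into account. Promoter windows came from RefSeq (GRCm38.p6). The alternatives covered scaling, choice of probe set, dim genes, variance model, array weights, a minimum change, the replicate number as a block, and each array left out. The use of the second Hk1 probe set was chosen after seeing the data.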

Additional observations from a re-analysis of the deposited data

How the results depend on the processing

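None of the 14 called genes changed sign under an alternative, and Slc2a1, Hk2, Pfkl, Pfkp and Aldoc kept their calls under all that were run. The other 9 called genes lost 32 calls between them, not counting those lost to a minimum change, and no uncalled gene of the 37 gained one. Of the 23 uncalled genes 11 changed sign, namely Slc2a3, Hk3, Pfkfb3, Pfkfb4, Pgam2, Bpgm, Eno2, Ldhb, Pdk4, Pgls and Tkt. For example, the log2 change of Ldhb was -0.07 without CRE-ERT2 replicate 3, that of Slc2a3 was -0.04 without CRE-ERT2 replicate 1 and that of Hk3 was 0.03 without ERT2 replicate 3. The number of genes that fell, 13 in the report, was 5 with all probe sets tested, 6 with a minimum log2 change of 0.5 and 7 (without CRE-ERT2 replicate 3) to 13 with single arrays left out. The gene that rose, Pdk2, was not called after centring, with all probe sets, in the block fit, with the minimum change or with any array left out, so the count was 0 in each of these.

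Over all genes, 455 were lower and 459 higher. Lower genes numbered 720 without the dimmest genes, 110 with all probe sets, 957 with a trended robust variance, 263 with the replicate number as a block, 121 with the minimum change, and 167 (without CRE-ERT2 replicate 3) to 561 (without ERT2 replicate 3) with single arrays left out. Lower genes were also fewer by over 1.5 times without CRE-ERT2 replicate 2 (222) and ERT2 replicate 1 (233). Higher genes numbered 188 with all probe sets, 195 with the minimum change and 286 (without CRE-ERT2 replicate 3) to 424 with single arrays left out, and 288 without CRE-ERT2 replicate 1. A further quantile normalization gave 401 lower and 638 higher. In the block fit 11 of the 37 genes fell and Pkm (adjusted p = 0.0626, limma), Ldha (0.0956) and Pdk2 (0.124) did not pass, but the replicate numbers were not found to pair the arrays. The number of gene pairs without overlap was 8 or 9 in every alternative run. With an array left out it could not fall below 8, because removing an array cannot create overlap. Only the mean of probe sets and the second Hk1 probe set could have lowered it. Leaving out an array removes a sample. The fit over all probe sets both adds tests and changes the variance moderation, and these were not separated. The cause of the other shifts was not tested. Signal over background is unknown, so dim probe sets could not be set apart by it.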

Other observations

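Among the pre-B cell markers, Rag2, a subunit of the recombinase that rearranges immunoglobulin genes, read 8.24, 8.16 and 8.06 on the log2 scale on the CRE-ERT2 arrays and 8.65, 8.86 and 8.53 on the ERT2 arrays (limma adjusted p = 0.00426). Il7r, the receptor for the pre-B cell growth factor interleukin 7, read 12.60, 12.51 and 12.63 on the CRE-ERT2 arrays and 12.97, 13.01 and 13.06 on the ERT2 arrays (limma adjusted p = 0.00349). Dntt, which adds bases at immunoglobulin joints, read 11.77, 11.62 and 11.60 on the CRE-ERT2 arrays and 11.29, 11.16 and 11.10 on the ERT2 arrays (limma adjusted p = 0.00369). The arrays of the groups did not overlap for any of the 3. The other 10 pre-B cell markers measured did not pass.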
